A study of Mus musculus with 4 samples.

Results

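The collagen chain genes were described in 4 primary mouse neuroblastomas: 44 genes whose symbol is Col, a type number, the letter a and a chain number, taken from probe sets that the platform annotation maps to exactly 1 gene, of 22180 genes named in all. They comprised 11 fibrillar chains, 6 basement membrane chains (type IV) and 27 other chains. All 4 tumours formed 1 group, labelled Alk mutant, TH-MYCN and Stat6-/-, on a mixed background of C57BL\6 and 129Sv/J, so every sample lacks Stat6 by its label and no comparison of genotypes was made. In TH-MYCN mice the tyrosine hydroxylase promoter drives MYCN in cells of the sympathetic lineage, which then give rise to neuroblastoma. The age of the mice and the kind of Alk mutation are not stated in the labels, which name the sternocleidomastoid, a neck muscle, as the tissue while calling the material a primary tumour.

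Collagens are proteins whose chains wind in threes into a triple helix that needs glycine at regular positions. Fibrillar collagens pack into the banded fibres that give stroma its strength, type IV chains build the sheet-like network under endothelium, glia and epithelium, and the other families decorate fibres, form beaded filaments or short-chain lattices, or span the cell membrane. In solid tumours most fibrillar collagen is made by fibroblasts and related mesenchymal cells, while type IV collagen comes largely from vessels and their pericytes. In neuroblastoma the stroma also includes Schwann cells, which lay down their own basement membrane.

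Each tumour was measured on 1 Affymetrix array, and all values are RMA values taken as log2, a scale the labels do not state, where 1 unit is a 2-fold difference. Detection was judged against 1394 olfactory and vomeronasal receptor genes as background: a gene whose 4-tumour mean passed 6.17, which 95% of the receptor genes do not reach, is called detected. A gene below this floor is undetermined, not absent. Probe sets differ in how strongly they bind, so levels of different genes are not compared, and each gene is set against its own mean. The arrays differed slightly as wholes: the median deviation of detected genes from their own mean was 0.12 in tumour 1, 0.04 in tumour 2, -0.09 in tumour 3 and -0.08 in tumour 4. Relative deviations have this median subtracted. Tumour 4 stood apart in sex-linked genes, with Xist at 10.13 against 3.89 to 3.95 in tumours 1 to 3 and the Y-linked Eif2s3y lowest there, against 7.47 to 7.89 in the others, so differences of tumour 4 cannot be told apart from sex. All 16 measured members of the sympathoadrenal marker list were detected, and none of 14 skeletal muscle markers was, with Ckm at 4.30 ± 0.15 and Acta1 at 5.37 ± 0.14 (SD, n = 4).

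The stretch of 120 bases before the annotated start is shown for 5 of the 9 collagen genes detected in these tumours, chosen after their values were seen: 3 that were highest in tumour 1, then the 2 that were highest in tumour 4. Sequences are from RefSeq's GRCm38.p6 table, read 5′ to 3′ on the gene's own strand, and capitals mark matches on either strand to 1 of 3 motifs. These are the promoter box CCAAT, a common form of the element that TATA-binding protein recognises, TATAAA, and the core of the site bound by Sp1 and its relatives, GGGCGG. Col1a2 lies at chr6:4505498-4505617 on the plus strand, Col3a1 at chr1:45311418-45311537 on the plus strand, Col8a1 at chr16:57754738-57754857 on the minus strand, Col9a2 at chr4:121039446-121039565 and Col27a1 at chr4:63215292-63215411, both on the plus strand.
Col1a2: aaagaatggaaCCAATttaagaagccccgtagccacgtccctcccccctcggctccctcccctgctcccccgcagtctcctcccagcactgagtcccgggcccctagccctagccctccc
Col3a1: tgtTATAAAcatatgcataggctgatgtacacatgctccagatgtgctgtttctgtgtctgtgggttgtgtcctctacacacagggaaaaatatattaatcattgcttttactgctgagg
Col8a1: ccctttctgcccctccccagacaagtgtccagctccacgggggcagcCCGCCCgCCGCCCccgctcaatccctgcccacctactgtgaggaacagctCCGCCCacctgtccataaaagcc
Col9a2: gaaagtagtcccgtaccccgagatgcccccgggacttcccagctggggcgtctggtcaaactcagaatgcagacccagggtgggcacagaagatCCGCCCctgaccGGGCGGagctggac
Col27a1: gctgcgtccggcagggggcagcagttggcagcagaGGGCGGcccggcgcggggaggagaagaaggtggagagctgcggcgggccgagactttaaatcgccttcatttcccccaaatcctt

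Of the 44 collagen genes, 35 had such a window, and Col1a1 was not among them. Within 250 bases before the start, GGGCGG occurred in 21 of the 35 (60.0%), against 35.4% of all 27025 genes with a window. CCAAT occurred in 13 of 35 (37.1%), against 37.5% of all genes, and TATAAA in 5 of 35 (14.3%), against 14.3%. The detected genes that were highest in tumour 1 did not all share a motif. Col1a2 held CCAAT 1 time and GGGCGG 2 times, the latter outside the stretch shown. Col3a1 held TATAAA 1 time and neither of the others, Col8a1 held GGGCGG 4 times, and Col6a1 held none of the 3 motifs. Col4a1 held CCAAT and Col6a2 held GGGCGG, while Col1a1 had no window. GGGCGG was also found in Col9a2 and Col27a1, whose order over tumours was different. A match describes letters only and does not show that a factor binds there.

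Few collagen genes were detected. The 4-tumour mean lay above the floor for 9 of the 44 (20.5%), compared with 40.5% of all named genes. Fibrillar chains made up 4 of these 9 (Col1a1, Col1a2, Col3a1 and Col27a1, 4 of 11 measured), the basement membrane class 1 (Col4a1, of 6) and the other families 4 (Col6a1, Col6a2, Col8a1 and Col9a2, of 27). In bulk tissue, fewer cells of a type and less RNA per cell cannot be told apart. Nearest the floor were Col6a1 inside it, with a mean of 6.34, and Col2a1 outside it, with 6.16. Judged against the receptor genes of its own array, the number of collagen genes above background was 12 in tumour 1, 11 in tumour 2, 7 in tumour 3 and 6 in tumour 4, while the number of all genes was 9900, 9007, 8143 and 8003. The count of 9 depends on the floor: 5 genes passed their own array's floor in every tumour, and a floor at the receptors' 99th percentile left Col1a1 alone. With the probe sets of a gene averaged, 7 passed, without Col1a2 and Col6a1.

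**Figure D1:**
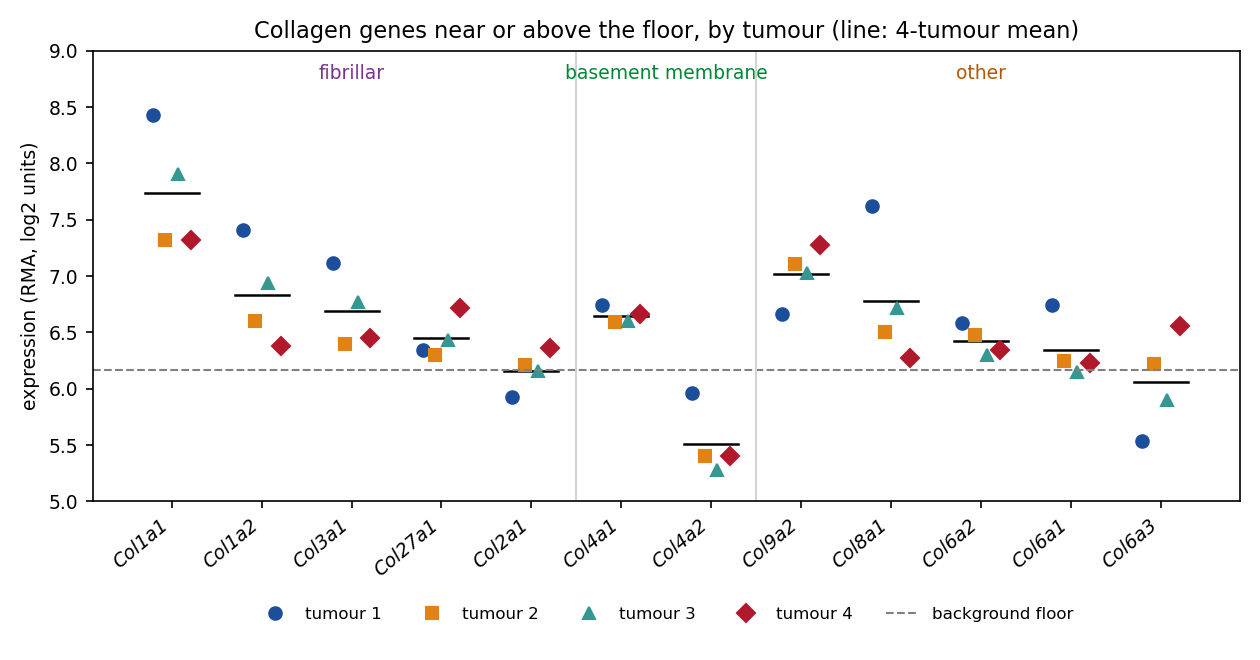
Expression in each of the 4 tumours (log2 units) for the 9 collagen genes with a mean above the floor and for Col2a1, Col4a2 and Col6a3, which lay below it; the black line is the mean and the dashed line the floor at 6.17. Col1a1, Col1a2, Col3a1 and Col8a1 were highest in tumour 1, Col4a1 hardly varied, and Col27a1, Col9a2 and Col6a3 were highest in tumour 4.

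Type I and type III collagen, the main fibre-forming collagens of connective tissue, were highest in tumour 1 and next highest in tumour 3. Col1a1 and Col1a2 encode the chains that combine to form type I collagen. Col1a1 measured 8.43 in tumour 1, 7.32 in tumour 2, 7.91 in tumour 3 and 7.32 in tumour 4, with a mean of 7.74 ± 0.54 (SD, n = 4). Tumours 2 and 4 were alike, and tumour 1 was 2.16-fold above them.

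Col1a2 measured 7.41, 6.60, 6.94 and 6.38 in tumours 1 to 4, with a mean of 6.83 ± 0.45 (SD, n = 4). It followed Col1a1 in having tumour 1 at the top, tumour 3 next and tumours 2 and 4 below, although its lowest value was in tumour 4. A second Col1a2 probe set, with values of 5.10, 4.45, 4.70 and 4.67, was also highest in tumour 1 and next in tumour 3. The range was 1.03 in the brighter probe set and 0.64 in the dimmer.

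Col3a1, whose product forms homotrimers in the finer fibres of vessels and young connective tissue, measured 7.12, 6.40, 6.77 and 6.45 in tumours 1 to 4, with a mean of 6.69 ± 0.33 (SD, n = 4). The order was again tumour 1, tumour 3, then tumours 4 and 2 close together, over a range of 0.72. Tumour 4 aside, these 3 genes kept the same order in tumours 1, 3 and 2.

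Col27a1, a fibrillar chain best known from cartilage, did not share this order. It measured 6.34, 6.30, 6.43 and 6.72 in tumours 1 to 4, with a mean of 6.45 ± 0.19 (SD, n = 4), so tumour 4 was highest and the other 3 lay within 0.13 of each other. The relative deviation in tumour 4 was 0.36 for Col27a1 and -0.35, -0.37 and -0.15 for Col1a1, Col1a2 and Col3a1.

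The other 7 fibrillar genes lay below the floor, with means from 4.87 for Col11a1 to 6.16 for Col2a1. Col2a1, the chain of the main cartilage collagen, measured 5.93, 6.21, 6.16 and 6.36 in tumours 1 to 4, lowest in the tumour where type I was highest. The type V chains, which assemble into type I fibres and set their thickness, hardly varied: Col5a1 ranged over 0.19 units, Col5a3 over 0.25 and Col5a2 over 0.32. Col24a1, a minor fibrillar chain, ranged over 0.81, from 5.36 in tumour 2 to 6.16 in tumour 3. Col11a2 and Col11a1 of type XI stood at means of 5.15 and 4.87.

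The detected type IV chain was nearly constant. Col4a1 measured 6.74, 6.59, 6.60 and 6.66 in tumours 1 to 4, with a mean of 6.65 ± 0.07 (SD, n = 4) and a range of 0.16, where the median detected gene had 0.41. Col4a2, whose chain joins 2 copies of the Col4a1 chain in each protomer, lay below the floor at 5.96, 5.40, 5.28 and 5.40, a mean of 5.51 ± 0.31 (SD, n = 4). Tumour 1 was the highest for Col4a2. For Col4a1 the order turned with the centring: tumour 1 was highest as deposited, but the relative deviations were -0.03, -0.11, 0.04 and 0.09, with tumour 4 highest. In RefSeq these genes start head to head on opposite strands, with annotated starts 21 bases apart and overlapping transcripts, and no protein-coding gene between them.

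The 4 further type IV chains, which build the specialised networks of kidney, lung and some epithelia, all lay below the floor. The means were 4.94 for Col4a6, 4.92 for Col4a3, 4.86 for Col4a4 and 4.25 for Col4a5. Col4a4 had the widest range of these, 0.59, with tumour 1 lowest at 4.47. Col4a5 and Col4a6, a head-to-head pair on the X chromosome with starts 1343 bases apart, ranged over 0.22 and 0.21, with tumour 4 at 4.29 and 5.08. Adding the multiplexins of basement membrane zones, Col15a1 (mean 5.06) and Col18a1 (5.28), brought no further detected gene to the class.

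Among the other collagens, Col8a1 had the widest range of all 44 genes. Its product forms short-chain hexagonal lattices, among other places in vessel walls and under corneal endothelium. Col8a1 measured 7.62, 6.50, 6.72 and 6.27 in tumours 1 to 4, with a mean of 6.78 ± 0.59 (SD, n = 4) and a range of 1.36, or 2.56-fold. Tumour 1 stood 0.90 above the next tumour, and the order was the same as for Col1a2. This order was found in 5.31% of all detected genes. Its partner chain Col8a2 lay below the floor with a mean of 4.31.

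Type VI collagen, the beaded filament that links cells to the fibre network, showed its chains in different orders. Col6a1 measured 6.74, 6.25, 6.15 and 6.23 in tumours 1 to 4, with a mean of 6.34 ± 0.27 (SD, n = 4), so that tumour 1 was highest and the other 3 lay together. A second, dimmer Col6a1 probe set did not follow this: it read 3.99, 4.36, 3.95 and 4.15, highest in tumour 2. Col6a2, the neighbouring gene, measured 6.58, 6.48, 6.30 and 6.34 with a mean of 6.42 ± 0.13 (SD, n = 4), also highest in tumour 1 but within 0.28 overall.

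Col6a3, the large chain that joins those of Col6a1 and Col6a2 in the classical trimer, went the other way. It measured 5.54, 6.22, 5.90 and 6.56 in tumours 1 to 4, with a mean of 6.06 ± 0.44 (SD, n = 4), just below the floor. Tumour 1, as deposited highest for both partner chains, was lowest here by 0.36. The relative deviation in tumour 1 was -0.64 for Col6a3 and 0.27 for the brighter Col6a1 probe set, but only 0.03 for Col6a2. The range of 1.02 made Col6a3 the only collagen gene below the floor to reach 1 unit, which 1.70% of all genes below the floor did. The remaining type VI chains, Col6a4, Col6a5 and Col6a6, had means of 4.88, 4.26 and 5.18.

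Col9a2 was the sole detected member of the FACIT family, whose chains sit on the surface of fibres. Type IX collagen, to which it belongs, coats cartilage fibrils. Col9a2 measured 6.66, 7.11, 7.03 and 7.28 in tumours 1 to 4, with a mean of 7.02 ± 0.26 (SD, n = 4), so tumour 1 was lowest and tumour 4 highest. Col9a1, below the floor with a mean of 5.90, was also highest in tumour 4 (6.28) and stood at 5.66 and 5.65 in tumours 1 and 2. Col9a3 was flat, with a range of 0.12 around 5.02.

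The other 6 FACIT chains lay below the floor. Col12a1 and Col14a1, fibre-associated chains of dense connective tissue, were highest in tumour 1, at 5.89 and 5.79 against means of 5.49 and 5.52. Col16a1, Col19a1, Col20a1 and Col22a1 had means of 5.57, 4.12, 5.27 and 4.92. The transmembrane collagens, which are expressed by epithelial and neural cells among others, were not detected: Col23a1 had a mean of 5.99, Col13a1 5.59, Col25a1 5.25 and Col17a1 5.02. Of these Col25a1, a collagen of neurons, varied most, from 4.94 in tumour 1 to 5.62 in tumour 4. Col7a1, the anchoring fibril chain (5.84), Col10a1 of growth plate cartilage (4.46), Col26a1 (5.65) and Col28a1 (4.53) were also below the floor and ranged over 0.31 or less.

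**Figure D2:**
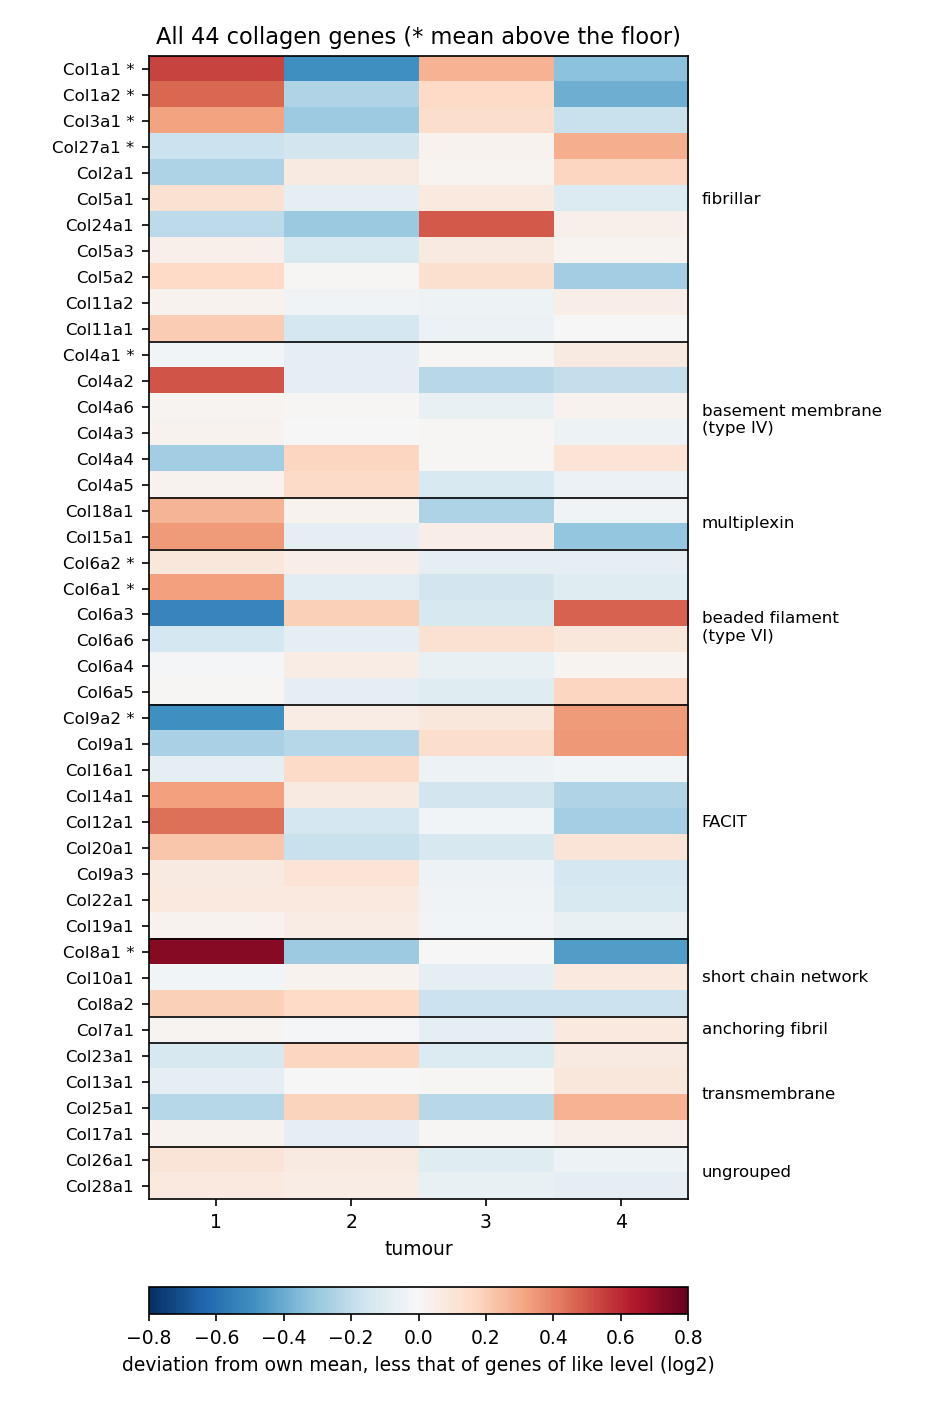
Deviation of each of the 44 collagen genes (rows, by family) from its own 4-tumour mean in each tumour (columns), after subtracting the median deviation of genes of like mean level (log2 units). Col1a1, Col1a2, Col8a1 and Col4a2 were the highest in tumour 1, at 0.54, 0.46, 0.73 and 0.50, and Col6a3 and Col9a2 the lowest there, at -0.53 and -0.49.

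A range of at least 1 unit was reached by Col1a1, Col1a2 and Col8a1, 3 of 9 (33.3%), and by 4.26% of all detected genes. The median range was 0.62 over the 9 detected collagens and 0.41 over all detected genes. All 3 depended on tumour 1, without which no detected collagen gene had a range of 1 and the widest, Col1a1, had 0.60. Col1a2 fell short of 1 unit without tumour 4 (0.81), after a further quantile normalization of the arrays (0.95) and with its probe sets averaged (0.73), each of which left 2 genes. Of the 35 collagens below the floor the median range was 0.27, where all genes below it had 0.34.

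**Figure D3:**
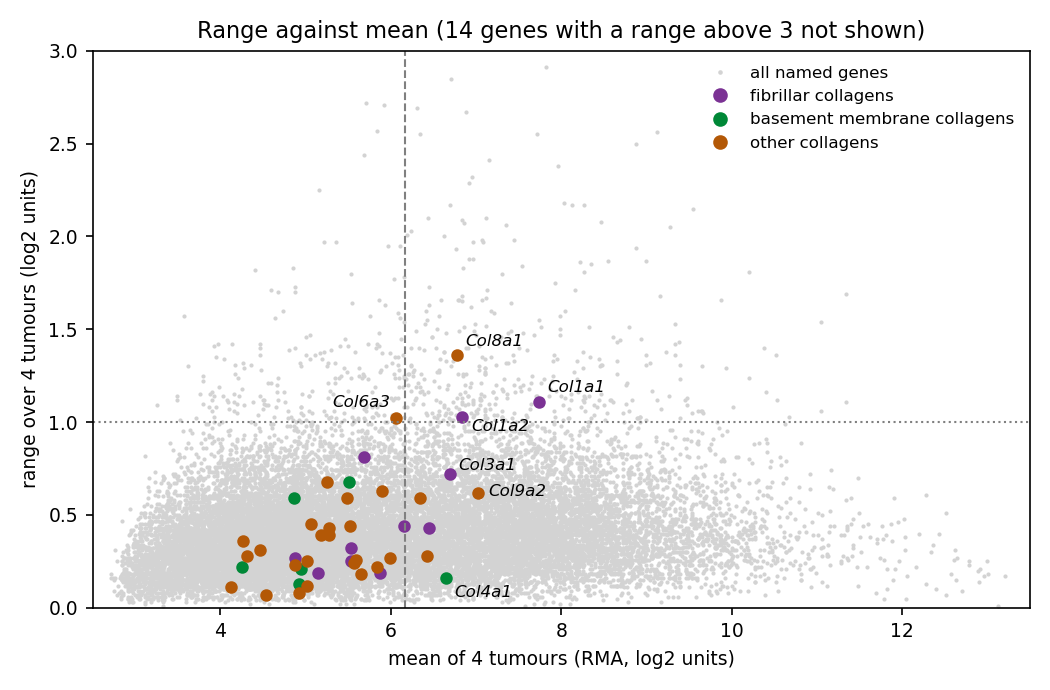
Range over the 4 tumours against the 4-tumour mean (both in log2 units) for all named genes in grey (14 with a range above 3 are off the axis) and the collagen genes in colour; the dashed line is the floor and the dotted line a range of 1 unit. Col8a1, Col1a1 and Col1a2 lie above the dotted line to the right of the floor, Col6a3 just to its left, and Col4a1 is near the bottom at 0.16.

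Set side by side by class, the detected fibrillar genes had a median relative deviation of 0.38 in tumour 1, -0.30 in tumour 2, 0.18 in tumour 3 and -0.25 in tumour 4. The SD over the 4 genes was 0.35, 0.12, 0.08 and 0.34 in the same order, wide in tumours 1 and 4 because Col27a1 lay opposite to the other 3. The span from the lowest to the highest tumour was thus 0.68 for the fibrillar class. It was 0.20 for the basement membrane class, which rests on Col4a1 alone, and 0.22 for the other collagens. In the last class medians hid opposite members, with Col8a1 at 0.72 and Col9a2 at -0.48 in tumour 1. When all 11 fibrillar genes were counted irrespective of level, with centring on all genes, the span was 0.24. The medians were then 0.08, -0.15, 0.09 and 0.08 in tumours 1 to 4. The added genes lie below the floor and are undetermined, so this span cannot show which members carry the differences. Whether the classes differed in span was not tested.

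Tumour 1 had the highest value for 7 of the 9 detected collagens, against 46.6% of all detected genes, and the highest relative deviation for 6 of the 9, against 18.2%. Detection itself rests on a mean that includes tumour 1. With tumour 1 left out, 8 collagens were detected, and those of the other families fell from 4 to 3. Col6a1, the detected collagen nearest the floor, is in both counts for tumour 1. The relative deviation in tumour 1 reached 0.5 for 2 of the 9, Col1a1 (0.56) and Col8a1 (0.72), and for 0.701% of all detected genes. Both exceptions to the first count, Col27a1 and Col9a2, were highest in tumour 4. Over all 44 collagens, detected or not, the relative deviation was highest in tumour 1 for 9 and in tumour 4 for 29. The share over all named genes was not computed, so these counts are not read as a trait of collagens. Genes below the floor shifted against detected genes, with a median deviation of -0.07 in tumour 1 and 0.08 in tumour 4. Set against genes of like mean level, 29 of the 44 lay above them in tumour 1 and 22 in tumour 4. The median deviations were 0.03 and -0.01. Of all 22180 named genes, 11080 lay above in each of these tumours. The part of the shift in the count over all 44 was not tested. In none of the 9 was 1 tumour set apart from the rest by Dixon's ratio at its 95% critical value, which was passed in 3.83% of detected genes.

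**Figure D4:**
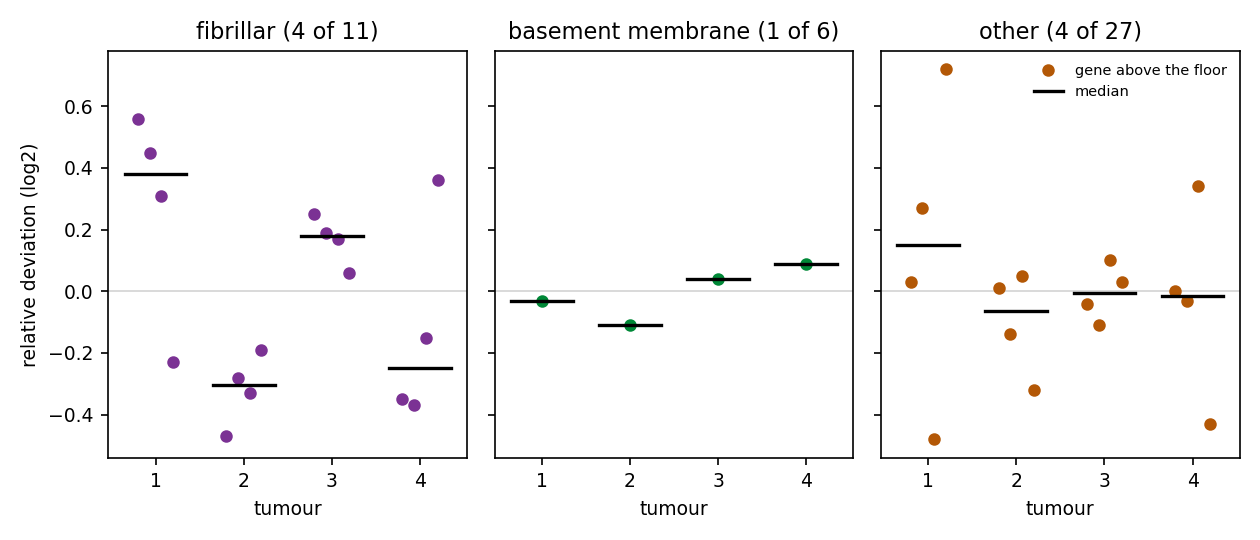
Relative deviation (log2 units) of the detected collagen genes in each tumour, by class; points are genes and bars their median. Fibrillar medians run from -0.30 in tumour 2 to 0.38 in tumour 1, and the single basement membrane gene stays between -0.11 and 0.09.

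Fibroblast markers other than collagens summed, as deposited, to the same order of tumours as Col1a2. Col3a1 differed in having tumour 2 lowest. Of 15 measured, 8 were detected. The level summed over all 15 was 101.36 in tumour 1, 92.45 in tumour 2, 94.99 in tumour 3 and 89.73 in tumour 4. This sum includes the genes below the floor. Over the 8 detected markers alone, the median deviation from genes of like level was 0.36, -0.25, 0.16 and -0.36 in tumours 1 to 4. Postn, periostin, measured 9.44, 8.33, 8.88 and 7.57 in tumours 1 to 4. Sparc, a collagen-binding matricellular protein, measured 8.62, 7.86, 8.04 and 7.48.

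Both again had tumour 1 at the top and tumour 4 at the bottom. Dcn, decorin, was 8.26 in tumour 1 and at most 6.55 elsewhere. Thy1 was highest in tumour 3 (7.95), and Fbln1 in tumour 2 (8.89). Pdgfra and Lum, which define many fibroblasts, were below the floor at 4.37 and 3.88. The part of fibroblast content in the collagen differences was not tested.

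**Figure D5:**
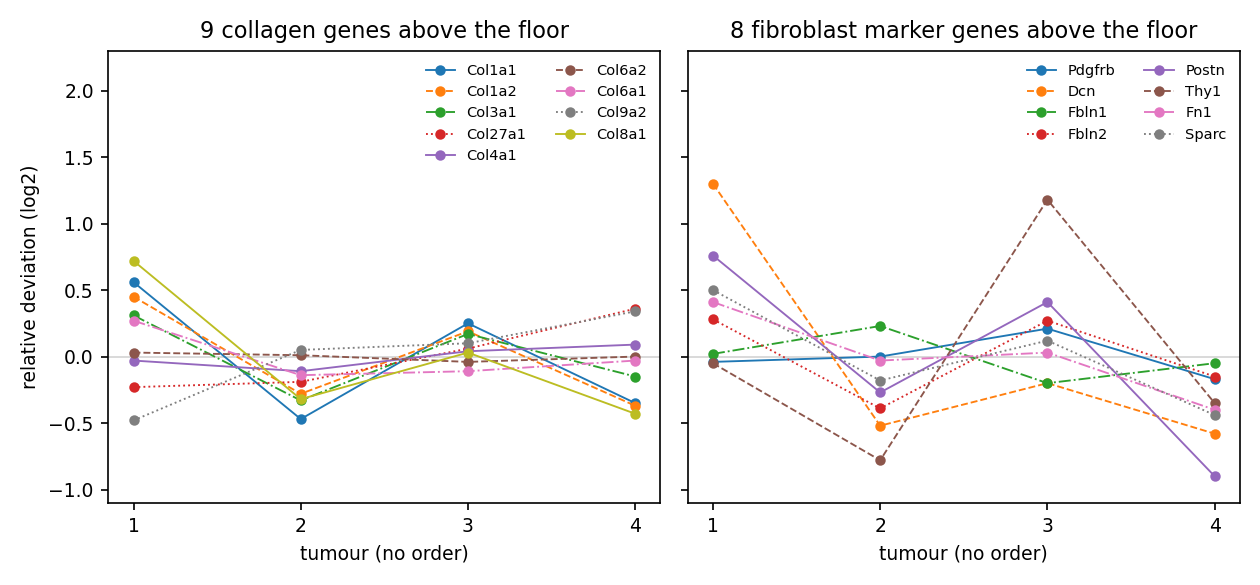
Relative deviation (log2 units) in each tumour of the 9 detected collagen genes (left) and of the 8 detected fibroblast markers (right); lines join the values of a gene and imply no order of tumours. Col8a1 (0.72) and Col1a1 (0.56) are the highest collagens in tumour 1, where Dcn and Postn also lie highest, and Thy1 peaks in tumour 3.

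For markers of other cells that make collagen, summed levels in tumours 1 to 4 were 63.19, 63.68, 62.28 and 61.95 for pericytes and smooth muscle (3 of 10 detected) and 79.11, 79.40, 79.68 and 78.70 for endothelium (2 of 15 detected). Schwann cell markers (3 of 10 detected) summed to 65.89, 62.23, 59.89 and 62.07, and macrophage markers (8 of 10) to 77.25, 77.42, 71.19 and 76.12. None of 8 chondrocyte markers was detected, with Acan at 4.37 ± 0.10 and Sox9 at 5.54 ± 0.24 (SD, n = 4), although Col9a2 and Col27a1, known from cartilage, were. The pericyte, endothelial and Schwann sums rest mostly on genes below the floor, so no order of tumours is read from them. The part of these cells in the collagen values was not tested.

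Of 76 genes that act on collagen or beside it, 69 were measured and 27 detected (39.1%), a share close to the 40.5% of all genes. For folding and modification, 10 of 20 were detected and none reached a range of 1. The widest was Serpinh1, the collagen chaperone of the endoplasmic reticulum, at 6.63, 6.30, 6.18 and 5.73 in tumours 1 to 4. Its mean of 6.21, which includes tumour 1, lay only 0.04 above the floor, and its value in tumour 4 lay below it. Mia3, which helps load procollagen into transport vesicles, measured 7.47, 7.15, 6.84 and 6.67.

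P3h3, a prolyl hydroxylase relative, was highest in tumour 3 (7.72). P4hb and Ppib, which also fold many other proteins, ranged over only 0.22 and 0.26 units. So Serpinh1 and Mia3 shared tumour 1 as the highest and tumour 4 as the lowest with Col1a2 and Col8a1. As deposited, tumour 2 came second for both, where the collagens had tumour 3. The relative deviations in tumours 2 and 3 were 0.07 and -0.11 for Mia3 but 0.05 in each for Serpinh1.

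Procollagen processing had 4 of 8 genes detected. Bmp1, the protease that removes the C-terminal propeptide, stood at 7.13 ± 0.11, and its enhancer Pcolce at 6.99 ± 0.23 (SD, n = 4), highest in tumour 3 (7.27). Pcolce2 ranged over 0.54 and was highest in tumour 2 (6.89), and the convertase Furin ranged over 0.37. Of the crosslinking enzymes 1 of 5 was detected: Pxdn, peroxidasin, which links type IV networks, measured 7.94, 7.92, 7.13 and 7.70, lowest in tumour 3. The 4 measured lysyl oxidases, named after their values were seen, were below the floor and differed in order, with Lox (5.76) and Loxl1 (6.32) highest in tumour 1, Loxl3 (5.83) in tumour 4 and Loxl4 (5.65) in tumour 2.

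Among collagen receptors 3 of 10 were detected. Itga1, the alpha chain of an integrin that prefers type IV collagen, measured 6.94, 6.45, 7.99 and 6.58 in tumours 1 to 4 and was the only one of the 27 to reach a range of 1. Its partner Itgb1 was steady at 9.15 ± 0.14, as was the kinase Ddr1 at 7.30 ± 0.13 (SD, n = 4). Itga1 was thus highest in tumour 3, while Col4a1 ranged over 0.16 in all.

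For collagen breakdown 6 of 12 genes were detected. The protease inhibitors Timp1 (6.86, 6.14, 6.29 and 5.87) and Timp3 (7.20, 6.44, 6.27 and 6.26) were highest in tumour 1, and Timp2 was steadier at 8.23 ± 0.18 (SD, n = 4). Mmp14, a membrane collagenase, stood at 6.27 ± 0.21, and Mmp16 measured 6.95 in tumour 1 and 6.03 in tumour 3. The floor applies to a mean that includes tumour 1, and Timp1 and Mmp14 passed it by only 0.12 and 0.10. Of the 6 detected genes 5 were highest in tumour 1, beside 46.6% of all detected genes. The exception, the gelatinase Mmp2, measured 7.64, 7.05, 7.20 and 7.77 and was highest in tumour 4, as was the inhibitor Timp4 (4.80), below the floor; both were named after their values were seen. Timp1 shared its order of tumours with Col1a2, an order found in 5.31% of all detected genes. Its values in tumours 2 and 4 lay below the floor.

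Basement membrane partners had 3 of 14 genes detected. The laminin chains Lamb1 (7.07, 6.31, 6.38 and 6.74) and Lamc1 (7.55, with a mean of 7.15 and a range of 0.55) were highest in tumour 1, and Agrn, agrin, was highest in tumour 4 (8.19) with 8.14 in tumour 1. As deposited, tumour 1 was thus at or near the top for these, as for Col4a2 and for Col4a1, which varied by only 0.16. The relative deviation in tumour 1 was 0.32 for Lamb1 and 0.27 for Lamc1. For Agrn it was 0.08, below tumour 3 (0.10) and tumour 4 (0.35).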

How the data were processed

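Total RNA from 4 tumours was hybridised to 1-colour Affymetrix arrays, 1 per tumour. The submitters' processing notes name RMA and Partek, with no version or setting. The deposited values are taken as log2, a scale that their range of 2.47 to 13.59 fits but that the authors did not state. The labels do not say whether each tumour is from a different mouse; exact equality between any 2 arrays was at most 0.215% of values. Array numbers limit the precision.

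Of 41345 probe sets, 23521 had 1 gene, 1814 several and 16010 were not listed. Symbols were updated through Entrez identifiers (23328 matched GRCm38.p6). For several probe sets of a gene the highest mean was used. With 1 group no comparison between groups could be tested and no p-value is given; Dixon's ratio served to mark tumours far from the other 3. Collagen classes, the 6 related lists and 8 marker lists, and the naming rule (all collagens, and per related list up to 3 detected members with the widest and 2 with the narrowest range) were chosen with earlier results of these data known. Other genes were named as examples of their list, after their values were seen. For genes of like level, 20 bins of the mean were used. Alternatives covered the floor, probe sets, quantile normalization, centring, class limits and leaving out each tumour. Calculations used Python 3.11.15, numpy 2.4.6 and pandas 2.3.3, and were tested on simulated data.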

Additional observations from a re-analysis of the deposited data

Results flagged for a closer look

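Among 84 genes named in the text (the 44 collagens, related genes, markers and the sex-linked pair), there were 7 in which 1 tumour lay far from the other 3, with Dixon's ratio above its 95% critical value for 4 samples. Chance flags about 1 in 20 groups. The share was 3.83% among all detected genes and was not computed for genes below the floor. Xist and Eif2s3y are described above as setting tumour 4 apart, so their flags repeat that. The ratios were 0.850 for Col11a2 (tumour 4), 0.876 for Col22a1 (tumour 2), 0.927 for Col6a5 (tumour 4), 0.852 for Col9a3 (tumour 2), 0.941 for Lamc1 (tumour 1), 0.991 for Xist (tumour 4) and 0.896 for Eif2s3y (tumour 4). The 4 collagens lay below the floor, and their ranges were 0.19, 0.08, 0.36 and 0.12 log2 units. Lamc1, the laminin gamma 1 chain, was detected, at 7.55 in tumour 1 and at most 7.03 in the others. Xist and Eif2s3y, X- and Y-linked, set tumour 4 apart, Xist at 10.13 and Eif2s3y as the lowest.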

How the results depend on the processing

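The number of detected collagens was 1 for a 99th-percentile receptor floor (1 fibrillar, 0 basement membrane, 0 other), 44 at their median (11, 6 and 27) and, in a check added after seeing the data, 5 when every array had to pass its own floor (1 of them in the other families). Leaving out 1 tumour gave 8 to 10. The number with a range of at least 1 unit was 1 at the 99th percentile, 0 to 3 with 1 tumour left out (0 without tumour 1), and 6 for a range of 0.5. The fibrillar span was 1.05 at the 99th percentile, 0.25 for the receptor median and 0.24 without any floor, and the basement membrane span 0.10 with no floor. The span of the other collagens was 0.09 for the receptor median, 0.07 without any floor, 0.04 with probe sets averaged, 0.38 with nothing subtracted and 0.10 to 0.23 with 1 tumour left out. At the 99th percentile the latter 2 classes held no gene and gave no span. With 1 tumour left out the fibrillar span was 0.56 to 0.69. No paired analysis was possible because there is 1 group.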
